A study of Mus musculus with 7 samples.

Results

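Immediate early genes are transcribed within minutes of a stimulus, from transcription factors already present in the cell, and their mRNAs are short-lived. The 10 examined here were Fos, Fosb, Jun, Junb, Egr1, Atf3, Ier2, Nr4a1, Dusp1 and Zfp36. They were taken by symbol from a table of 17537 genes in mouse kidney, and all 10 were listed there. Of these, 9 passed a filter of at least 1 CPM in at least 2 libraries (CPM, normalized read count scaled to library size). Fosb did not, because it was above 1 CPM in control replicate 9 only.

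The study asked which changes in renal gene expression remain after blood glucose is lowered in diabetic mice. Its 7 polyA RNA libraries came from whole renal tissue of C57BL/6 mice, 8 to 10 weeks old at the start and all male per the labels, although the study's methods name both sexes. The 3 nondiabetic controls (C, replicates 2, 8 and 9) received no streptozotocin, a toxin of pancreatic beta cells, and no inhibitor. The 2 untreated diabetic mice (DM-22, replicates 1 and 2) received streptozotocin at 60 mg/kg on 5 consecutive days and stayed hyperglycemic for 22 weeks. The 2 treated diabetic mice (DM+SGLT2i, replicates 1 and 2) received the same injections and, after 16 weeks of hyperglycemia, 6 weeks of dapagliflozin given with the drinking water at 25 mg/kg. Dapagliflozin inhibits SGLT2, the main glucose transporter of the proximal tubule. Replicates are taken as separate mice, which the labels do not spell out, and no label gives an RNA extraction date, a time of day at killing or a sequencing batch.

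Fos, Fosb, Jun and Junb encode subunits of the dimeric transcription factor AP-1, and Atf3 encodes a related leucine zipper factor that can repress as well as activate. Egr1 and Nr4a1 encode zinc finger transcription factors, the second an orphan nuclear receptor, and Ier2 encodes a small nuclear protein. Dusp1 encodes a phosphatase that inactivates MAP kinases, and Zfp36 encodes a protein that binds AU-rich elements in mRNAs and speeds their decay, so both act back on the response. In kidney these genes are known to respond to ischemia, osmotic and mechanical stimuli and growth factors.

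Control replicate 9 stood apart for these genes before any comparison between groups. It held the highest value of all 7 libraries for 10 of 10 genes, from 4.62-fold (Junb) to 60.9-fold (Fos) above the next highest library, whichever group that was. Over the 13976 genes that passed the filter it was the highest library for 15.2%. The 10 genes summed to 3620 CPM in control replicate 9, or 0.365% of its reads, against 126 to 346 CPM (0.0113% to 0.0352%) in the other 6 libraries. Every comparison with controls is therefore given with and without control replicate 9. Control replicate 2 is left out in turn as well, because the number of genes passing the threshold over the whole table depended on it.

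**Figure D1:**
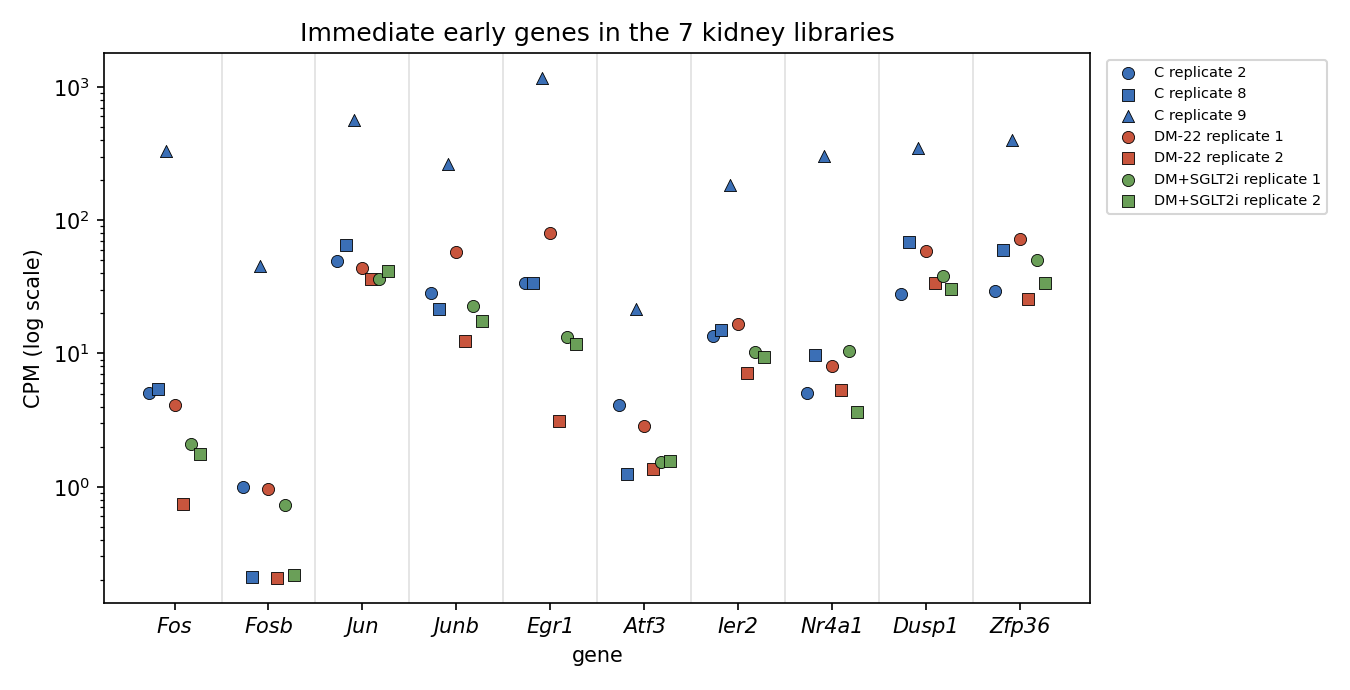
CPM (log scale) of the 10 immediate early genes, 1 point per library, with controls in blue, DM-22 in red and DM+SGLT2i in green. The blue triangle, control replicate 9, is the highest point for all 10 genes, and the red square, DM-22 replicate 2, is the lowest for 6.

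Promoter sequence was read for the genes whose induction is classically attributed to elements close to the start site. RefSeq windows (build GRCm38.p6, 250 bases before the start) were found for 8 of the 10 genes, all but Egr1 and Ier2. The core of the cAMP response element (CRE), TGACG on either strand, was present in 6 of the 8 windows (Fos, Fosb, Junb, Atf3, Nr4a1 and Dusp1) and in 17.8% of 32851 promoters of the same length. The 4 windows printed here hold the most CRE cores (Nr4a1 and Dusp1), both a core and a TATA element (Fos), or a CArG box, the site of serum response factor (Zfp36). Capitals mark each TGACG core on either strand, the full CRE in Dusp1 and the CArG box in Zfp36.
Fos, chr12:85473640-85473889, plus strand: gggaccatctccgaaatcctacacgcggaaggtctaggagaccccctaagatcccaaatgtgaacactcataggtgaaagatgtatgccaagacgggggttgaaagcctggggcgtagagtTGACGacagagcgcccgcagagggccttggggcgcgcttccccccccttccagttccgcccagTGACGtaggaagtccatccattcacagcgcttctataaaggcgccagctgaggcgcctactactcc
Nr4a1, chr15:101266596-101266845, plus strand: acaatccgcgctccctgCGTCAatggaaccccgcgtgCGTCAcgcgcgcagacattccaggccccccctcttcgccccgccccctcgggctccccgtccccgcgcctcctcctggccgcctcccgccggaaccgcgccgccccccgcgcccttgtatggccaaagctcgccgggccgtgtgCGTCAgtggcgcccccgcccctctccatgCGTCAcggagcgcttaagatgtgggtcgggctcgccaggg
Dusp1, chr17:26508473-26508722, minus strand: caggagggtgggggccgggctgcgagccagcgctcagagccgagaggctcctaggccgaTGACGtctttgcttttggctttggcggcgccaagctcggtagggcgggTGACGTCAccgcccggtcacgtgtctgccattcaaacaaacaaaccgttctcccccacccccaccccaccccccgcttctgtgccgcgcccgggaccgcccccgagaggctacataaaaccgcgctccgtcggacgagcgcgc
Zfp36, chr7:28379229-28379478, minus strand: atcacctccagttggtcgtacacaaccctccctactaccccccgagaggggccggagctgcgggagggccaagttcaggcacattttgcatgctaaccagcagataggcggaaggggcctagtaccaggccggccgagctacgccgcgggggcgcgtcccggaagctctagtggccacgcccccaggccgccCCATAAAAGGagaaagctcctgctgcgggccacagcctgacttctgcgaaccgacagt

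Both strands were searched for every motif. The full CRE, TGACGTCA, which contains the core on each strand, was found in Dusp1 alone (1.55% of all promoters). A CArG box was found in Zfp36 alone (1.47% of all promoters). The EGR site GCGNGGGCG was found in Fosb, Nr4a1 and Zfp36 (4.70% of all promoters), and the GC box core GGGCGG in 7 of the 8 windows (32.7% of all promoters). The letters TATAA were found in Fos alone (22.8% of all promoters), and the AP-1 site TGANTCA in 0 of 8 (6.75% of all promoters). A match is a match of letters only, and elements outside the windows were not searched.

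The 3′ UTRs carried the other shared sequence. The heptamer TATTTAT, the core bound by the Zfp36 protein, was present in the annotated 3′ UTR (GENCODE M21, GRCm38) of 6 of the 10 genes, and in 27.5% of 20979 mouse genes with a 3′ UTR. Among genes with a 3′ UTR of like length to that of each gene the share was between 12.3% and 45.0%, with a median of 20.2%. Dusp1 and Zfp36 held 3 copies each, Fos held 2, and Fosb, Jun and Atf3 held 1 each. Junb, Egr1, Ier2 and Nr4a1 held 0. The copies in the 3 genes with more than 1 are shown by the first of each, with the heptamer in capitals.
Fos, chr12:85477106-85477128, plus strand: tttcaattTATTTATtaagatgg
Dusp1, chr17:26506162-26506184, minus strand: ctggtcctTATTTATttaacacc
Zfp36, chr7:28376969-28376991, minus strand: gggcccttTATTTATgacgactt

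Fos (ENSMUSG00000021250, chromosome 12) showed the widest span of the 10 genes. It was at 5.02, 5.43 and 331 CPM in control replicates 2, 8 and 9, at 4.09 and 0.740 CPM in DM-22 replicates 1 and 2, and at 2.09 and 1.75 CPM in DM+SGLT2i replicates 1 and 2. All 3 controls lay above all 4 diabetic libraries, with a margin of less than 1 CPM between control replicate 2 and DM-22 replicate 1. The control mean of 114 ± 188 CPM (SD, n = 3) became 5.23 ± 0.290 CPM (n = 2) without replicate 9. Fosb (ENSMUSG00000003545), which encodes a partner of Jun proteins like Fos, was at 0.990, 0.211 and 45.0 CPM in the controls, at 0.954 and 0.208 CPM in DM-22 and at 0.724 and 0.217 CPM in DM+SGLT2i. Outside control replicate 9 it rested on 9 to 54 reads per library, too few to order the groups.

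Jun (ENSMUSG00000052684) was the steadiest of the genes outside control replicate 9. It was at 49.4, 65.5 and 563 CPM in the controls, at 44.0 and 36.4 CPM in DM-22 and at 36.3 and 41.4 CPM in DM+SGLT2i. As for Fos, the controls did not overlap the diabetic libraries, and the other 6 libraries spanned a range of only 1.81-fold. Over all genes tested, 193 of 13976 (1.38%) had all 3 controls above all 4 diabetic libraries, and Fos and Jun were the 2 such genes among the 10. Junb (ENSMUSG00000052837), at 28.3, 21.7 and 265 CPM in the controls, was at 57.3 and 12.5 CPM in DM-22 and at 22.7 and 17.5 CPM in DM+SGLT2i. The DM-22 libraries thus lay on either side of all other libraries except control replicate 9.

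Egr1 (ENSMUSG00000038418) differed the most between the DM-22 libraries. It was at 33.5, 33.7 and 1166 CPM in the controls, at 80.6 and 3.10 CPM in DM-22 and at 13.3 and 11.9 CPM in DM+SGLT2i. Control replicates 2 and 8 were nearly equal, the treated diabetic pair was nearly equal, and the untreated diabetic pair differed 26.0-fold. Atf3 (ENSMUSG00000026628) was at 4.09, 1.24 and 21.5 CPM in the controls, at 2.84 and 1.36 CPM in DM-22 and at 1.55 and 1.55 CPM in DM+SGLT2i. Control replicate 8 was the lowest of all 7 libraries for Atf3, so the controls spanned the diabetic range. Ier2 (ENSMUSG00000053560) was at 13.6, 15.0 and 183 CPM in the controls, at 16.7 and 7.19 CPM in DM-22 and at 10.2 and 9.45 CPM in DM+SGLT2i. Nr4a1 (ENSMUSG00000023034) was at 5.04, 9.66 and 303 CPM in the controls, at 8.10 and 5.34 CPM in DM-22 and at 10.4 and 3.61 CPM in DM+SGLT2i. For Nr4a1 the highest and the lowest library after control replicate 9 were the 2 treated diabetic mice.

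The feedback genes Dusp1 and Zfp36 overlapped between groups. Dusp1 (ENSMUSG00000024190) was at 28.1, 68.3 and 345 CPM in the controls, at 58.6 and 33.7 CPM in DM-22 and at 38.4 and 30.2 CPM in DM+SGLT2i. Zfp36 (ENSMUSG00000044786) was at 29.6, 59.3 and 398 CPM in the controls, at 72.4 and 25.8 CPM in DM-22 and at 50.4 and 33.6 CPM in DM+SGLT2i. For both genes control replicates 2 and 8 lay 2.43-fold and 2.00-fold apart. In whole tissue, fewer expressing cells and less RNA per cell cannot be told apart for any of these values.

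Per kilobase of exon, the order of the genes differed between control replicate 9 and the rest. In control replicate 9, Egr1 led at 260 CPM per kb, followed by Jun at 176 and Fos at 141. Ier2, Junb, Zfp36, Dusp1 and Nr4a1 lay between 86.4 and 120 CPM per kb, and Atf3 (10.0) and Fosb (7.22) were the lowest. As medians of the other 6 libraries, Jun led at 13.4 CPM per kb, followed by Zfp36 at 12.1, Dusp1 at 10.9 and Junb at 9.64. Fos was near the bottom of that order at 1.31 CPM per kb, above Atf3 (0.720) and Fosb (0.0754). Control replicate 9 was 107-fold above the median of the other libraries for Fos, 95.8-fold for Fosb, 49.8-fold for Egr1 and 45.1-fold for Nr4a1, but 9.47-fold for Zfp36 and 9.57-fold for Dusp1.

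The second library that stood out lay among the diabetic mice. DM-22 replicate 1 was above DM-22 replicate 2 for 10 of 10 genes, by 1.21-fold (Jun) to 26.0-fold (Egr1), whereas 48.0% of all genes tested were higher in replicate 1. DM-22 replicate 2 was the lowest of the 7 libraries for 6 of the 10 genes. DM+SGLT2i replicate 1 was above replicate 2 for 8 of 10 genes, by at most 3.34-fold (Fosb, 37 and 12 reads), and 45.4% of all genes tested were higher in replicate 1. Control replicate 8 was above replicate 2 for 7 of 10 genes, and for 51.7% of all genes tested. The libraries of a group therefore differed among themselves in the summed level of these genes. The sums were 198, 280 and 3620 CPM in the controls, 346 and 126 CPM in DM-22 and 186 and 151 CPM in DM+SGLT2i.

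**Figure D2:**
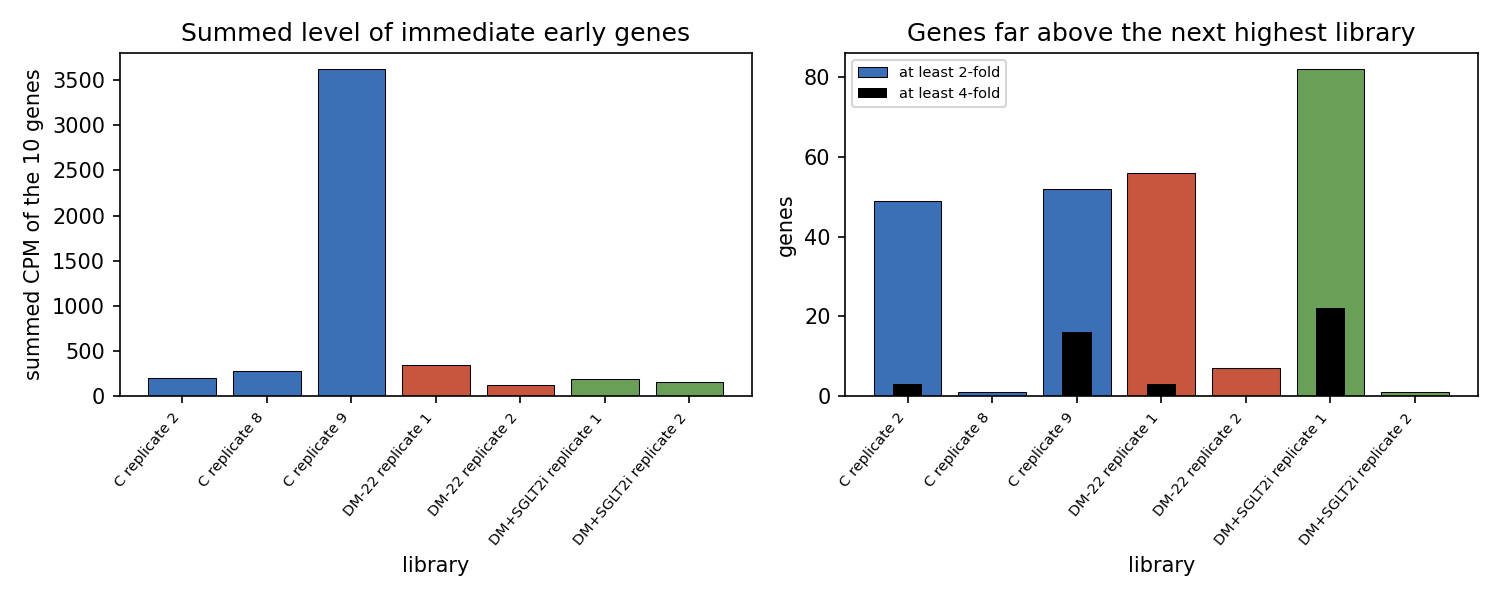
Left, summed CPM of the 10 immediate early genes in each library. Right, the number of all 13976 tested genes at least 2-fold (wide bars) and at least 4-fold (narrow black bars) above the next highest library, with controls in blue, DM-22 in red and DM+SGLT2i in green. Control replicate 9 is far above the others on the left at 3620 CPM, and on the right it has 52 and 16 genes against 82 and 22 in DM+SGLT2i replicate 1.

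In untreated diabetic mice compared with controls, none of the 9 genes passed the threshold. All 9 fitted values were below 0, with a median log2 fold change of -1.57 beside 0.0045 over all genes tested. Fos was at -3.21 ± 1.77 (SE), Egr1 at -2.70 ± 1.86, Nr4a1 at -1.86 ± 1.62, Jun at -1.60 ± 0.97 and Ier2 at -1.57 ± 1.10. Atf3, Zfp36, Junb and Dusp1 lay between -1.17 and -0.97. The smallest adjusted p of the 9 was 0.804 (limma, Benjamini-Hochberg over all genes tested), and 0 of 9 had an unadjusted p under 0.05. Over the whole table, 0% of genes passed at an adjusted p under 0.05, and 3.28% were lower at an unadjusted p under 0.05. Limma's voom on the recovered reads also called 0 of 9. Without DM-22 replicate 2 the median was -0.75, with Egr1 at -0.45 ± 2.05 and Junb at 0.062 ± 1.38. Without control replicate 8 it was -2.05, and Atf3 (-2.01 ± 0.75) was the 1 gene of the 9 with an unadjusted p under 0.05, its adjusted p being 0.996 (limma). The share of all genes at that level was not taken for the fit without control replicate 8, so this count has no baseline.

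Without control replicate 9 the same comparison gave a median of -0.18. Fos was then at -1.26 ± 0.61, Egr1 at -0.998 ± 1.33 and Jun at -0.50 ± 0.21, while Junb (0.11 ± 0.67), Dusp1 (0.020 ± 0.47) and Zfp36 (0.044 ± 0.57) changed sign. 0 of 9 had an unadjusted p under 0.05, where 0.981% of all genes tested were lower at that level. Without control replicate 2, which leaves replicates 8 and 9, the median moved to -2.21 and Fos to -4.22 ± 1.79. The smallest adjusted p was then 0.197 (Jun, limma) and 0 of 9 had an unadjusted p under 0.05, where 15.0% of all genes tested were lower at that level and 0.0144% passed after adjustment.

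In treated diabetic mice compared with controls, none of the 9 genes passed the threshold either. All 9 fitted values were again below 0, with a median of -1.65 beside -0.013 over all genes tested. Fos was at -3.19 ± 1.77, Egr1 at -3.09 ± 1.86, Nr4a1 at -1.95 ± 1.62, Ier2 at -1.73 ± 1.10 and Jun at -1.65 ± 0.97. The adjusted p of all 9 was 0.9997 (limma), and 0 of 9 had an unadjusted p under 0.05, where 0.415% of all genes were lower at that level. Without control replicate 9 the median was -0.46, all 9 values stayed below 0, and Zfp36 was at -0.027 ± 0.57. Jun, at -0.55 ± 0.21, was the only gene of the 9 with an unadjusted p under 0.05 (0.130% of all genes were lower at that level), and its adjusted p was 0.9999 (limma). Without control replicate 2 the median was -2.30, and Dusp1 (-2.16 ± 0.73) and Jun (-2.30 ± 0.91) had an unadjusted p under 0.05, where 9.23% of all genes were lower at that level and 0.123% passed after adjustment. The smallest adjusted p of the 9 was then 0.220 (Dusp1, limma). Both comparisons use the same controls, so their likeness carries no information beyond each comparison's own values.

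**Figure D3:**
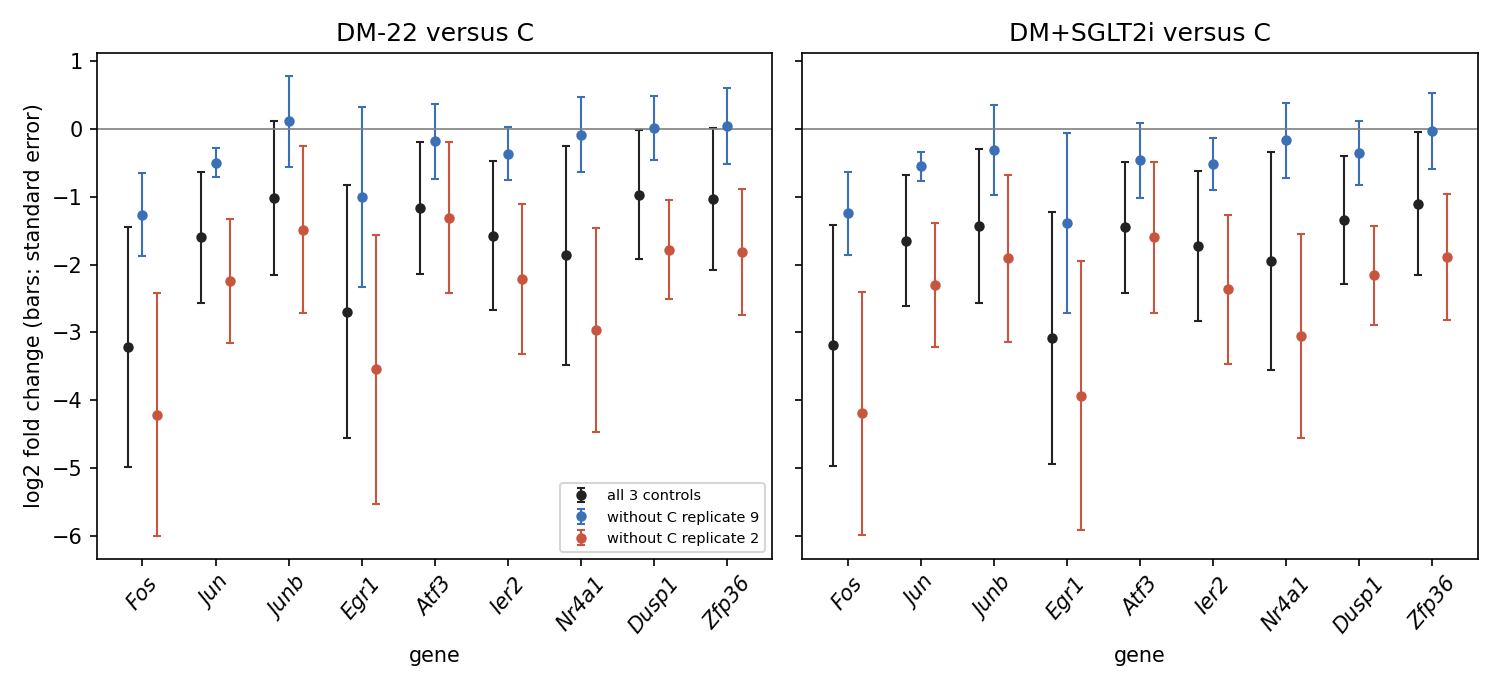
Log2 fold changes (points) and standard errors (bars) of the 9 tested genes in DM-22 (left) and DM+SGLT2i (right) against controls, with all 3 controls (black), without control replicate 9 (blue) and without control replicate 2 (red). Blue points lie nearest 0, between -1.39 and 0.11, and red points lie lowest.

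Between treated and untreated diabetic mice, where control replicate 9 takes no part in the difference, the fitted values were small beside their errors. The median of the 9 was -0.16 beside 0.0045 over all genes. Junb (-0.42 ± 1.24), Egr1 (-0.39 ± 2.04) and Dusp1 (-0.38 ± 1.04) lay farthest from 0, and Fos was at 0.020 ± 1.94. The median turned to 0.43 without DM-22 replicate 1 and was -0.77 without DM-22 replicate 2. 0 of 9 passed and 0 of 9 had an unadjusted p under 0.05, where 1.66% of all genes were lower at that level. The spread between the controls enters the errors, because the 3 groups share 1 estimate of it, and at errors of 1.04 to 2.04 on the log2 scale a difference of 2-fold was not detectable. Without control replicate 9 they shrank, to 0.67 for Junb, 1.33 for Egr1 and 0.21 for Jun, and 0 of 9 had an unadjusted p under 0.05.

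With the 4 diabetic libraries taken as 1 group against the controls, 0 of 9 passed and 0 of 9 had an unadjusted p under 0.05. Fos was at -3.20 ± 1.48 and Egr1 at -2.89 ± 1.56, with an adjusted p of 0.988 each (limma). The median was -1.62 beside 0.0039 over all genes, of which 1.38% were lower at an unadjusted p under 0.05. Without control replicate 9 the median was -0.32, and Jun alone had an unadjusted p under 0.05 (-0.52 ± 0.19, adjusted p = 0.9999, limma), where 0.195% of all genes were lower at that level. Fos was then at -1.25 ± 0.53 and Zfp36 at 0.0085 ± 0.49. Without control replicate 2, Fos (-4.21 ± 1.55), Jun (-2.27 ± 0.79) and Dusp1 (-1.97 ± 0.63) had an unadjusted p under 0.05, where 14.6% of all genes were lower at that level and 0.202% passed after adjustment. The adjusted p of Dusp1, the smallest of the 9, was 0.142 (limma).

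Of 28 paralogues and partners of the 10 genes, 21 passed the filter. Control replicate 9 was the highest library for 12 of the 21. Whichever library was highest, 11 of the 21 spanned more than 1 on the log2 scale over the 7 libraries. Egr2, a paralogue of Egr1, was at 39.1 CPM in control replicate 9 and at 0.139 to 2.16 CPM elsewhere. Nr4a2, the partner of Nr4a1 in its receptor family, was at 9.49 CPM and at 0.347 to 1.19 CPM elsewhere. Ier3, an early gene linked to cell survival, was at 43.7, 53.0 and 123 CPM in the controls and at 19.5 to 38.7 CPM in the diabetic libraries. All 3 controls thus lay above all 4 diabetic libraries, as for 1.38% of all genes tested. Its log2 fold change in DM-22 against controls was -1.45 ± 0.45 (adjusted p = 0.804, limma), and -0.995 ± 0.28 without control replicate 9. Of the 7 that did not pass, Egr3 and Nr4a3 exceeded 1 CPM in control replicate 9 only, which is why the filter removed them. Egr3 was at 8.505 CPM there and at 0 to 0.176 CPM elsewhere, and Nr4a3 at 15.4 CPM there and at 0.295 to 0.846 CPM elsewhere. The MAP kinase phosphatases Dusp4, Dusp5 and Dusp6 were also highest in control replicate 9, at 38.9, 9.36 and 155 CPM against at most 20.7, 4.57 and 81.6 CPM elsewhere.

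Other members of the AP-1 family were less far apart. Fosl2 was at 47.8 CPM in control replicate 9 and at 15.3 to 33.3 CPM elsewhere, and Atf4, a stress response factor, at 97.0 CPM and at 37.4 to 64.4 CPM elsewhere. Jdp2 was highest in DM-22 replicate 1 (11.3 CPM), and Batf3 in DM-22 replicate 2 (1.76 CPM). Outside the AP-1 family, Ier5l was also highest in DM-22 replicate 1 (27.1 CPM). The other 10 paralogues tested spanned 1 or less on the log2 scale. None of the 21 passed the threshold in any comparison with all 3 controls, where 0% of all genes tested passed.

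Of 48 other immediate early and early response genes, 46 were listed, 45 passed the filter, and control replicate 9 was the highest library for 26. Their median log2 fold change in DM-22 against controls was -0.34, and -0.043 without control replicate 9. With all 3 controls 0 of 45 passed the threshold, as did 0% of all genes tested. Ccn1, which encodes a secreted matrix protein, was at 49.4, 66.3 and 527 CPM in the controls and at 21.0 to 33.5 CPM in the 4 diabetic libraries. Its controls thus lay above all diabetic libraries, as they did for 1.38% of all genes tested. Its log2 fold change in DM-22 was -2.16 ± 0.95, and -1.09 without control replicate 9. Nfkbiz, a regulator of NF-kappaB, was at 3.63, 6.29 and 15.7 CPM in the controls, at 2.12 and 1.57 CPM in DM-22 and at 5.87 and 2.85 CPM in DM+SGLT2i. Sik1, a salt-inducible kinase, and Ccn2, a profibrotic matrix protein, were at 169 and 170 CPM in control replicate 9 and at no more than 76.3 and 147 CPM elsewhere.

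The genes whose profile over the 7 libraries was most like the mean profile of the 9 tested genes included other early response genes. The measure was the root mean square difference of centred log2(CPM + 0.5), a description over 7 libraries. Egr2 (0.56), Nr4a2 (0.58), Btg2 (0.61), Ccn1 (0.69), Apold1 (0.77) and Plk3 (0.77) were nearest, followed by the immunoglobulin segments Ighv6-3 (0.79) and Ighv1-72 (0.81) and the heat shock gene Hspa1l (0.86). Among the 9 genes themselves the measure ran from 0.17 (Ier2) to 1.03 (Egr1). Btg2, an antiproliferative early gene, was at 253 CPM in control replicate 9 and at 16.3 to 45.4 CPM elsewhere. Plk3, a stress-responsive kinase, was at 103 CPM in control replicate 9 and at 1.98 to 15.6 CPM elsewhere.

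**Figure D4:**
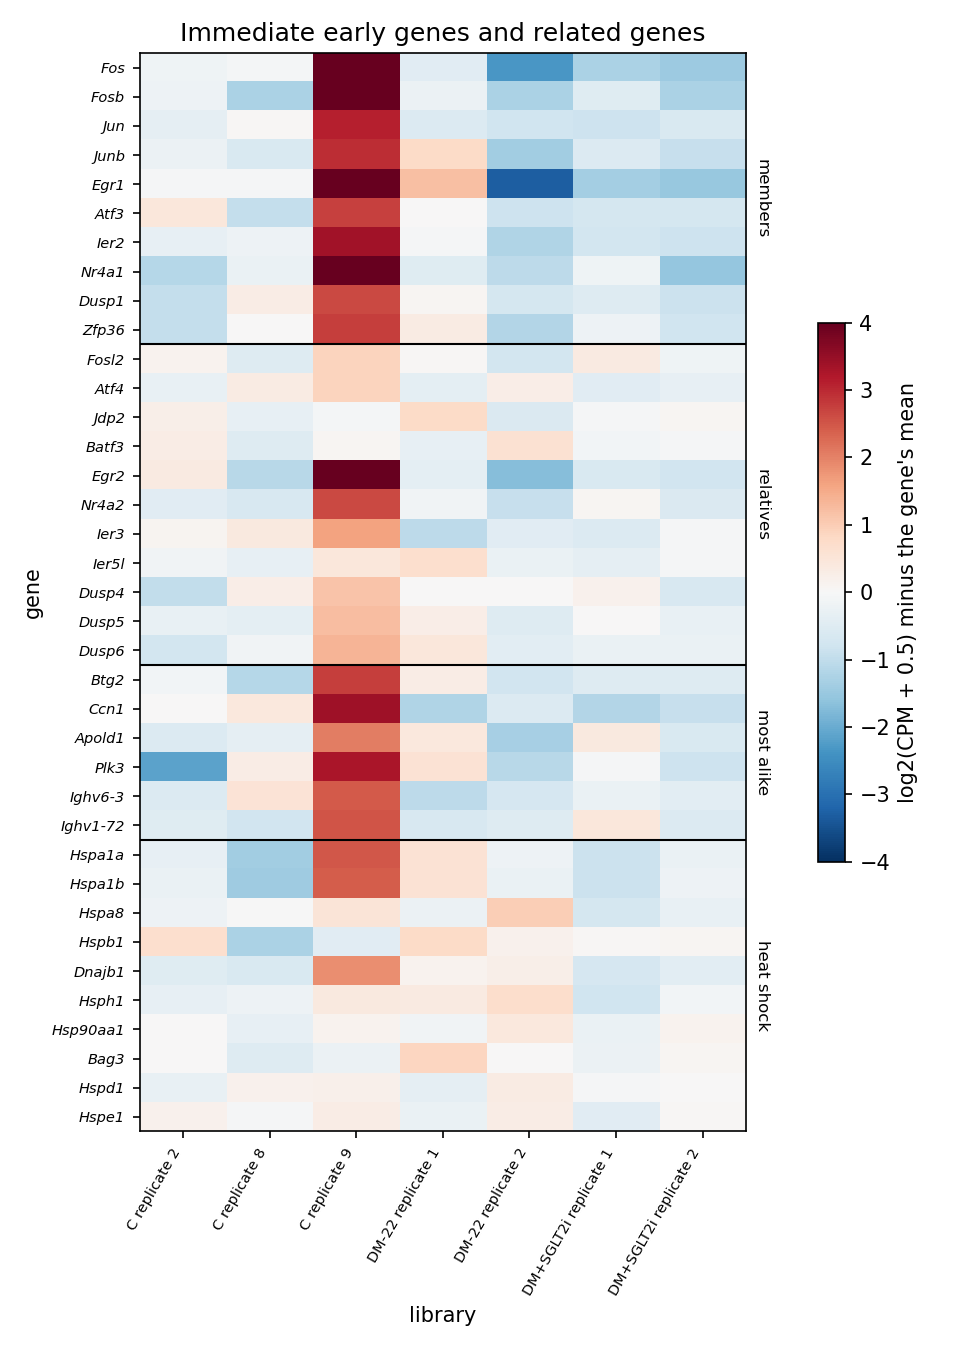
Centred log2(CPM + 0.5) in the 7 libraries (columns) for the 10 immediate early genes, the 11 relatives with a range over 1, the most alike other genes and the heat shock list (blocks from top to bottom). Red is above and blue below a gene's own mean, with colours saturating at 4 and -4; the third column, control replicate 9, is red for all 10 immediate early genes, for Egr2 and Nr4a2, and for Hspa1a, Hspa1b and Dnajb1.

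At 2-fold, the number of tested genes set apart in control replicate 9 was near that of 2 other libraries. There were 52 genes at least 2-fold above the next highest library there, against 49 in control replicate 2, 56 in DM-22 replicate 1 and 82 in DM+SGLT2i replicate 1, and 1 to 7 in each of the other 3. Of the 52, 9 were the tested immediate early genes, 10 were on the lists of relatives and other early genes, and 20 were immunoglobulin genes or Jchain by name. At 4-fold there were 16, against 22 in DM+SGLT2i replicate 1, 3 each in control replicate 2 and DM-22 replicate 1 and 0 in the other 3. The 16 were made up of the same 9, of Egr2, Ccn1, Plk3, Nr4a2 and Btg2, and of 2 immunoglobulin segments.

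Genes upstream of the response did not share its pattern. Of 20 kinases and serum response factors, all tested, 4 were highest in control replicate 9, none was 2-fold above the next library there, and 0 passed the threshold. Their median log2 fold change in DM-22 was 0.058. Mapk8, which encodes the kinase JNK1, was at 14.8, 21.6 and 23.0 CPM in the controls and at 13.3 to 17.8 CPM in the diabetic libraries. Mapkapk2, a kinase downstream of p38, was at 120 to 156 CPM in the controls and at 154 to 188 CPM in the diabetic libraries. Elk4, a partner of serum response factor, was at -0.44 ± 0.18 and Rps6ka5, a kinase of histones and CREB, at -0.37 ± 0.30 in DM-22 against controls.

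Of 16 known later targets of AP-1 and EGR1, 15 were listed and 12 tested. Of those tested, 2 were highest in control replicate 9, and both were at least 2-fold above the next highest library. The median log2 fold change of the 12 in DM-22 was -0.40. With all 3 controls 0 of the 12 passed the threshold, as did 0% of all genes tested. Cxcl1 did not pass the filter because it exceeded 1 CPM in control replicate 9 only, at 4.32 CPM against 0.0462 to 0.421 CPM elsewhere. Cxcl2 and Areg, also removed, stayed under 1 CPM in every library. Hmox1, the heme oxygenase induced by oxidative stress, was at 33.4 to 47.0 CPM in the controls and at 67.5 and 78.8 CPM in DM-22, a log2 fold change of 0.87 ± 0.19 with an adjusted p of 0.804 (limma). Timp1, an inhibitor of metalloproteinases, was at 5.35 CPM in control replicate 2 and at 0.274 to 2.56 CPM elsewhere, and Lif, a cytokine, at 1.56 CPM in control replicate 2 and at 0.278 to 1.17 CPM elsewhere.

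Several other measures moved with the libraries that stood apart, and their part in the levels of the immediate early genes was not tested. Heat shock genes were divided. Hspa1a and Hspa1b, whose near-identical sequences leave the split of reads between them uncertain, were at 621 and 662 CPM in control replicate 9 and at no more than 165 and 184 CPM elsewhere, and the cochaperone Dnajb1 was at 187 CPM and at no more than 61.2 CPM elsewhere. These 3 were singled out after their values were seen. By contrast, Hspb1 and Bag3 were highest in DM-22 replicate 1 (35.7 and 105 CPM), and Hsph1 and Hspa8 in DM-22 replicate 2 (185 and 4545 CPM). Of the 10 heat shock genes, 0 passed the threshold with all 3 controls, as did 0% of all genes tested.

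RNAs retained in the nucleus were high in control replicates 8 and 9 together. Malat1 was at 47.5, 292 and 390 CPM in the controls and at 32.3 to 111 CPM in the diabetic libraries. Neat1 was at 46.3, 165 and 237 CPM in the controls and at 16.7 to 98.0 CPM in the diabetic libraries, and Kcnq1ot1 at 0.751, 2.88 and 2.99 CPM in the controls and at 0.558 to 1.45 CPM in the diabetic libraries. For the immediate early genes, control replicate 8 was above replicate 2 for 7 of 10, and its sum was 280 CPM against 3620 CPM in replicate 9.

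Of the 9 clock genes of the repressor phase tested, Dbp, Nr1d2 and Per2 had all 3 controls above all 4 diabetic libraries, as had 1.38% of all genes tested. For Per2 the margin was small, at 16.1 CPM in control replicate 2 and 15.9 CPM in DM+SGLT2i replicate 1. The other repressor-phase genes overlapped between controls and diabetic libraries. Arntl, the core activator of the clock, was at 1.21 to 1.77 CPM in the controls, at 6.48 and 19.4 CPM in DM-22 and at 5.07 and 8.69 CPM in DM+SGLT2i. Dbp, an output gene of opposite phase, was at 168 to 225 CPM in the controls, at 83.3 and 37.6 CPM in DM-22 and at 106 and 66.6 CPM in DM+SGLT2i. Npas2, Nfil3 and Cry1 had log2 fold changes in DM-22 of 1.47, 1.26 and 0.49, and Ciart, Bhlhe41 and Per2 of -2.14, -0.98 and -0.95. None of the 5 activator-phase and 9 repressor-phase genes tested passed the threshold with all 3 controls, where 0% of all genes tested passed. The adjusted p of Arntl and of Dbp in DM-22 against controls was 0.804 (limma). DM-22 replicate 2, the lowest library for 6 of the immediate early genes, had the highest Arntl and the lowest Dbp. Control replicate 9 lay among the controls for both. It was the highest library for 4 of the 9 repressor-phase genes and 0 of the 5 activator-phase genes, and for 15.2% of all genes tested. Any link of these values to the immediate early genes was not tested.

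Kidney markers were present in every library, with 6 of 6 proximal tubule markers summing to 6408 to 15034 CPM and 4 of 4 thick ascending limb markers to 3294 to 12921 CPM. In control replicate 9 all segment markers lay within the range of the other 6 libraries except those of the collecting duct, at 433 CPM against 435 to 984 CPM. B cell and plasma cell markers (5 of 5 listed) summed to 135 CPM there, against 32.6 and 69.0 CPM in the other controls and 20.4 to 70.2 CPM in the diabetic libraries. Macrophage markers, 6 of 6 listed, were at 135 CPM in control replicate 9, the lowest sum of the 7, and up to 488 CPM in control replicate 2. Neutrophil markers, 4 of 5 listed, summed to at most 5.98 CPM in any library. Adipose markers, 4 of 5 listed, were at 810 CPM in DM+SGLT2i replicate 1 and at 0.751 to 24.0 CPM elsewhere, and that library was second highest for 1 of the 10 immediate early genes, Nr4a1.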

How the data were processed

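RNA sequencing covered 7 libraries of mouse renal tissue. The authors deposited log2 values of CPM, scaled by the TMM method with a small constant added, for 17537 genes. The submitters' processing notes name bcl2fastq, FastQC, Trim Galore, STAR, edgeR and build mm10, and the read counter and annotation are not given in the sources used here. The library kit was directional, and whether counting used strand is not given. CPM were recovered by removing the floor of -4.66 on the log2 scale, after which 100% of values were whole reads (tolerance 0.1). Reads on listed genes numbered 46456125 to 56541594 per library, so that 1 read was 0.0180 to 0.0231 CPM. All 7 columns were used and 0 were left out.

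Groups and replicate numbers came from the labels. A gene was kept when 2 or more libraries reached 1 CPM, which left 13976 genes. These entered limma (version 3.58.1, under R 4.3.3; lmFit and then eBayes with trend) as log2(CPM + 0.5), a scale that understates changes of low genes, with the 3 groups in 1 fit. P-values are two-sided, Benjamini-Hochberg adjusted over all genes tested, with a threshold of 0.05. The code was tested on simulated data. Coordinates are those of GENCODE M21 or RefSeq on GRCm38, whose gene names equalled those of the table for 17476 of 17537 identifiers.

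The 10 genes and all lists were chosen with earlier results of these data known. Values are given for all 10 genes, for relatives with a range over 1 on the log2 scale, for the 4 genes of each other list with the largest difference between DM-22 and C, and for the 10 genes most like the members. Alternatives were another pseudocount, the deposited values as they stand, no filter, median ratio scaling, limma voom, only the groups compared, a replicate block, and leaving out each library. P-values rest on 2 or 3 libraries a group. They set each difference against a spread estimated over all groups together and drawn toward that of other genes. The spread between these libraries may be technical. A gene that these rules name is not reported here. Other experiments of the study were not analysed here.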

Additional observations from a re-analysis of the deposited data

Results flagged for a closer look

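Atf3 in the 4 diabetic libraries was the 1 gene of the 10 examined with a library far from the other 3. DM-22 replicate 1, at 2.84 CPM, was separated from the next highest library by 0.835 of the range of the 4 on the log2(CPM + 0.5) scale, just above the limit for 4 samples, where chance passes about 1 group in 20. Groups of 3 libraries were not examined this way, so control replicate 9 is described only by its values.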

How the results depend on the processing

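None of the 477 values of single genes under the alternatives passed the adjusted threshold (smallest adjusted p 0.142, limma, Dusp1 in all diabetic mice against controls without control replicate 2), and 20 changed sign. In DM+SGLT2i against DM-22, Fos changed sign to -0.0030 with median ratio scaling and to -0.059 with a pseudocount of 2 CPM, and the cause was not tested. Scaling moved the median over all genes by less than 0.1 on the log2 scale. In all diabetic mice against controls, the alternative of only the groups compared merged both diabetic groups into 1. In that fit 1 immediate early gene had an unadjusted p under 0.05. The share over all genes was not taken, so this count has no baseline and is not read as a result.

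Leaving out each library in turn gave 0 to 1 genes at an unadjusted p under 0.05 for DM-22 against C, 0 to 2 for DM+SGLT2i against C and 0 to 3 for all diabetic mice against C. In DM-22 against C the log2 fold change ranged from -2.09 to 0.11 for Junb, -1.78 to 0.020 for Dusp1 and -1.82 to 0.044 for Zfp36, and in all diabetic mice from -1.85 to 0.0085 for Zfp36, each highest without control replicate 9. In DM+SGLT2i against DM-22 it ranged from -0.92 to 0.96 for Fos, from -0.18 to 0.088 for Jun, from -1.50 to 0.66 for Junb, from -2.64 to 1.86 for Egr1, from -0.71 to 0.14 for Atf3, from -0.74 to 0.43 for Ier2, from -0.79 to 0.61 for Nr4a1, from -0.77 to 0.017 for Dusp1 and from -0.81 to 0.66 for Zfp36. Where a group was left with 1 library, that library was assumed to vary like the other groups. Among fits that leave out a library, the share of all genes at an unadjusted p under 0.05 was taken only without control replicates 2 and 9. The counts of 2 and 3 were reached without control replicate 2, where 9.23% and 14.6% of all genes were lower at that level.

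Replicate numbers 1 and 2 occur in both diabetic groups. With the replicate block, 0 of 9 genes passed and the median stayed at -0.16. The deviations of same-numbered libraries correlated at -0.041 across 13976 genes, so the numbers were not taken as pairs. Fosb, tested only without the filter, was at -1.84 ± 1.64 in DM-22 against C. With all 3 controls, standard errors of 0.95 to 1.86 on the log2 scale limit what could be detected in DM-22 against C.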
